A study of Mus musculus with 2 samples.

Results

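Chromatin accessibility was described around the eye field and progenitor homeobox genes Pax6, Rax, Six3, Six6, Lhx2, Meis1 and Meis2 in late retinal progenitor cells (RPCs) with and without overexpression of Ngn3, the proneural basic helix-loop-helix factor encoded by Neurog3. Every ATAC-seq peak was taken whose summit lay in the body of 1 of these 7 genes or within 100 kb of it on either side. This gave 231 of 117165 peaks in the control library and 250 of 124935 in the Ngn3-OE library. Peaks were taken by position and not by any measured value.

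Plasmids were electroporated in vivo into the retinas of mouse pups at postnatal day 1. GFP-labelled cells were sorted at DAE 2, the second day after electroporation, and each library was made from 50000 sorted cells. Control cells carried the control plasmid with the GFP label, and Ngn3-OE cells carried the plasmid that overexpresses Ngn3, so that both groups had been electroporated, labelled and sorted. The labels give the tissue as retina and the cells as retinal progenitor cells, without a strain, and do not say how many pups were combined. Each group was 1 library, so the values below have no replicate check, no test between the groups was possible, and no interval covers the spread between animals. Intervals of single pileup ratios cover counting error, and those of shares and medians treat peaks as independent draws.

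The eye field is the patch of the early neural plate that becomes the eyes, and it is specified by a small set of homeobox transcription factors that keep one another on. Rax, Pax6, Six3, Six6 and Lhx2 belong to this set and are used again in the retina, where they hold progenitors in their multipotent, dividing state. Pax6 and Six3 also act in later neuron types, Lhx2 in Müller glia, and the TALE-class factors Meis1 and Meis2 bind DNA beside other homeodomain proteins and act upstream of Pax6 in the lens.

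The DNA under the peaks that the results turn on is given here from the mm10 reference, 5′ to 3′ on the plus strand. For 7 of the 8 entries the 201 bases centred on a summit are shown, and for the Pax6 start site the 170 bases of the peak itself. Capitals mark matches on either strand to TGACAG (the core that MEIS proteins prefer), CATCTG (an E-box core bound by neurogenins), TAATTA (a homeodomain core), TAATCC (the core of OTX and CRX) or the SOX-type words CCATTGT and CCTTTGT. Of these regions, 4 belong to Pax6, where most shared peaks had fewer tags in Ngn3-OE, and to the lower pairs of Six3. They are the strongest distal Pax6 peak at chr2:105606834-105607034, its control-only neighbour at chr2:105612352-105612552, the Pax6 start-site peak at chr2:105668723-105668892 and a peak in the Six3 transcription unit at chr17:85626225-85626425. The pair of Six6 regions, at chr12:72844322-72844522 and chr12:72841641-72841841, are neighbours, of which the second had more tags in Ngn3-OE. The Lhx2 region at chr2:38354638-38354838 had 16 control and 35 Ngn3-OE tags, and the Meis1 region at chr11:18916758-18916958 is the strongest intronic peak of that gene.
Pax6 distal, 63 control tags: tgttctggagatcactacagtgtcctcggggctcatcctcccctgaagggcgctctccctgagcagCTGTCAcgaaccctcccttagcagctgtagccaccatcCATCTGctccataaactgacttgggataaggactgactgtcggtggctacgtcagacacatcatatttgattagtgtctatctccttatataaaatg
Pax6 control-only, 30 control tags: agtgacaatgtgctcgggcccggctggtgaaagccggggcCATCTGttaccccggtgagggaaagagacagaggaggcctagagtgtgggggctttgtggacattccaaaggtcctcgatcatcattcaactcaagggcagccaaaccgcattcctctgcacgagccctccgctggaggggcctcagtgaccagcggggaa
Pax6 start site, 28 control tags: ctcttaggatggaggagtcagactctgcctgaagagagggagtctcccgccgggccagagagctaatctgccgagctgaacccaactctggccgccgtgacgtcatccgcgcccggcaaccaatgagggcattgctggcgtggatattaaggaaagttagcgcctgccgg
Six3 intronic, 22 control tags: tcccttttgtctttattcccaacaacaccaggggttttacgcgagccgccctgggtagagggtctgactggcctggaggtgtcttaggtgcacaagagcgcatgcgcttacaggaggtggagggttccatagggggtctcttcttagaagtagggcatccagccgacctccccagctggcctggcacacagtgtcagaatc
Six6 distal, 60 control tags: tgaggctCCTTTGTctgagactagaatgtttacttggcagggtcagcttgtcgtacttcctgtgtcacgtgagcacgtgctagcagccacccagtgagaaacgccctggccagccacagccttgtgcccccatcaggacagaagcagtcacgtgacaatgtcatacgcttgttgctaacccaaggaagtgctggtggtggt
Six6 higher in Ngn3-OE, 8 control tags: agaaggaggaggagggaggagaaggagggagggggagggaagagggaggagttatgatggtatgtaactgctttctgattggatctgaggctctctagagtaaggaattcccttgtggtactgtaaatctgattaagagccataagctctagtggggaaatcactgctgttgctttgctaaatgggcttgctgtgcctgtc
Lhx2 coding exon, 16 control tags: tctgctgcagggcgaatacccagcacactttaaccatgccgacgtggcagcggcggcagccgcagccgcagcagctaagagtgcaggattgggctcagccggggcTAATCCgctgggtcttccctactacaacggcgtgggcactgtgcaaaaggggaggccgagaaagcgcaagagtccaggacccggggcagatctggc
Meis1 intronic, 52 control tags: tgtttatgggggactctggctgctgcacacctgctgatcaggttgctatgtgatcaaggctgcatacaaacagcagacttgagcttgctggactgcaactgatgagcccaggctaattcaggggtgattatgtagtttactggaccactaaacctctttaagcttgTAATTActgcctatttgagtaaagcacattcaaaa

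Both distal Pax6 regions hold CATCTG, and the stronger also holds TGACAG. The Pax6 start site, the Six3 intron and the Six6 region that was higher in Ngn3-OE hold none of these words. The Six6 distal region holds the SOX-type word CCTTTGT at its left end, the Lhx2 exon holds TAATCC near its summit, and the Meis1 intron holds TAATTA. These matches describe the letters in the window and do not show binding.

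A pileup is the number of tags covering a summit, and it was recovered as a whole number for every peak. The median was 9 tags in both libraries, so most peaks were shallow. Peaks that overlapped by at least 1 bp were called shared, and each shared control peak was set against the Ngn3-OE peak it overlapped most. A pair is called deep when the higher of its 2 pileups reached 20 tags. Since a pair can pass this limit through the library where it is high, counts by gene are given over all shared pairs as well. Ratios are Ngn3-OE over control, divided by 1.08, the median ratio of all 32505 deep pairs, which is a shift of 0.11 on the log2 scale. The overexpressed gene itself had no control peak and 1 Ngn3-OE peak of 1591 tags, which includes any signal from the plasmid. The progenitor markers Sox2, Hes1 and Fgf15 and all 3 photoreceptor precursor markers had a peak within 1 kb of a start site in both libraries. Among the photoreceptor precursor markers the highest start-site pileup was 88 tags in control and 118 in Ngn3-OE, while Hes1 had 53 and 45 tags, Sox2 44 and 42, and Fgf15, another progenitor marker, 23 and 31. Markers of pigment epithelium, microglia or blood, and lens had none in either library, endothelium had 1 of 3 in control with 4 tags and none in Ngn3-OE, and both astrocyte markers had peaks of at most 12 and 17 tags. Peaks near a start site do not measure expression, and in such sorted pools a change in the mix of cells and a change within cells cannot be told apart. The part of these marker differences in the values below was not tested.

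Over the 7 windows most of the accessible regions were found in both libraries. Of the 231 control peaks, 185 were shared and 46 were control-only, and the shared fraction was 80.1% (95% Wilson interval 74.5 to 84.7). The control-only fraction was 19.9%, against 21.7% of all control peaks. Of the 250 Ngn3-OE peaks, 182 were shared (72.8%, 67.0 to 77.9) and 68 were Ngn3-OE-only. That one-library fraction was 27.2%, against 26.6% of all Ngn3-OE peaks, so neither list set these genes apart from the genome by peak loss or gain. The windows held 12.6 control and 13.6 Ngn3-OE peaks per 100 kb.

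**Figure D1:**
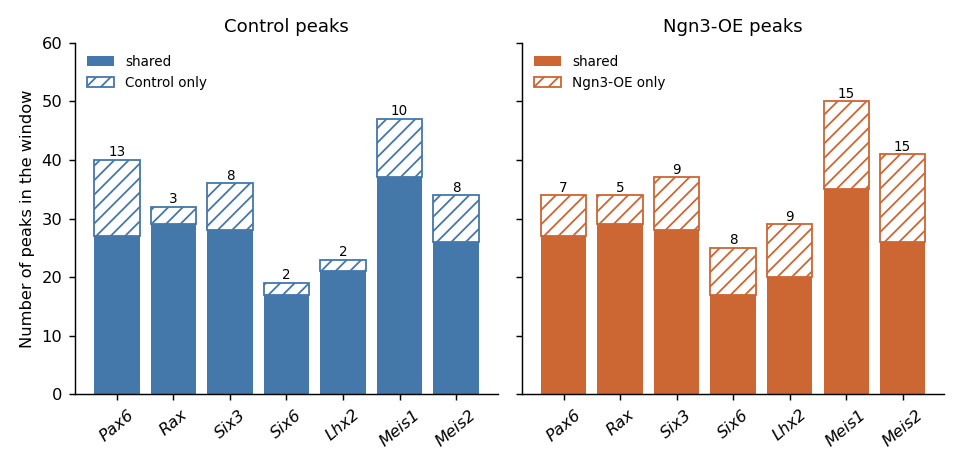
Number of control peaks (left) and Ngn3-OE peaks (right) in each gene window, split into shared peaks (filled) and peaks of 1 library only (hatched, with their number above the bar). Pax6 is the gene with more control-only than Ngn3-OE-only peaks (13 against 7), while Six6, Lhx2, Meis1 and Meis2 have more Ngn3-OE-only peaks.

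The one-library peaks were mostly faint. Among all 114 of them the pileup ran from 3 to 30 tags with a median of 7, and only 1 reached 20 tags, a control-only peak at Pax6. Pax6 was also the only window with fewer peaks in Ngn3-OE than in control: 40 in control and 34 in Ngn3-OE, of which 13 and 7 were found in 1 library. At Six6 the one-library counts were 2 control-only and 8 Ngn3-OE-only, at Lhx2 they were 2 and 9, at Meis1 10 and 15, and at Meis2 8 and 15. Rax (3 and 5) and Six3 (8 and 9) were nearly even. Over the whole lists there were 25424 control-only and 33270 Ngn3-OE-only peaks. With a −log10 q of at least 5 required of the counted peak, Pax6 kept 2 control-only and 2 Ngn3-OE-only peaks, so its surplus of control-only peaks lay among weak calls. Six6 and Lhx2 then kept 0 and 2 each, Meis1 2 and 4, Meis2 3 and 6, Rax 0 and 3, and Six3 1 and 1. Most Ngn3-OE-only peaks at Six6, Lhx2, Meis1 and Meis2 were thus weak calls too.

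The pairs gave the same overall balance. Over all 185 shared pairs of the windows, 86 had a log2 ratio above 0 and 99 below, with a median of −0.05 beside −0.02 for all 91741 pairs of the genome. Of 79 deep pairs in the windows, 4 were at least 2-fold higher in Ngn3-OE (5.06%, 1.99 to 12.3), against 4.07% of all deep pairs. Another 6 were at least 2-fold lower (7.59%, 3.53 to 15.6), against 5.68% of all. Without scaling and with scaling by the genome background these shares were 7.59% higher and 5.06% lower, so which was the larger depended on the scaling. The median log2 ratio was −0.04 (95% order-statistic interval −0.20 to 0.15) beside 0 for all deep pairs, and it was 0.06 without the scaling, so its sign depends on the scaling. The middle of the distribution was somewhat wider than in the genome, with quartiles at −0.43 and 0.40 against −0.30 and 0.31. Among the 45 deep pairs more than 3 kb from any start site, 2 were 2-fold higher, where 5.37% of all such pairs were, and 3 were 2-fold lower, where 9.87% were.

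**Figure D2:**
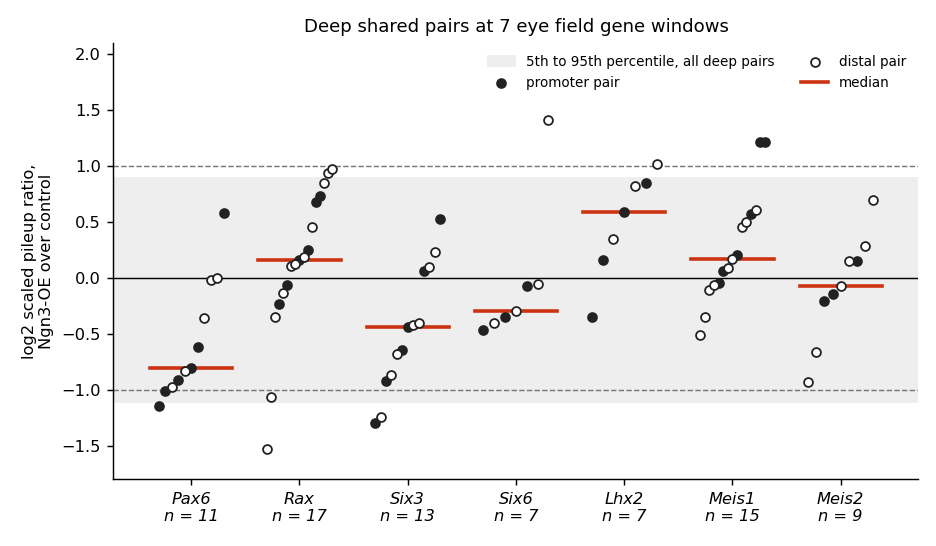
Log2 scaled pileup ratio (Ngn3-OE over control) of each deep pair, by gene and in ascending order within it, with promoter pairs filled, distal pairs open and the median as a red line; dashed lines mark a 2-fold difference and the grey band the 5th to 95th percentile of all deep pairs (−1.11 to 0.89). The points at Pax6 lie mostly below 0 and those at Lhx2 mostly above it, where 5 of the 7 Lhx2 pairs reached 20 tags in Ngn3-OE only.

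By gene, Pax6 had the lowest values. Over all shared pairs, 22 of 27 Pax6 pairs had a log2 ratio below 0, where 51.0% of all pairs in the genome did, and their median was −0.58. Without scaling, 18 of the 27 had fewer tags in Ngn3-OE than in control. The other medians over all shared pairs were −0.11 at Six6, −0.09 at Meis2, −0.04 at Meis1, −0.03 at Six3, 0.16 at Rax and 0.21 at Lhx2. Lhx2 had 14 of 21 pairs above 0, Rax 17 of 29, Six3 14 of 28, Meis1 18 of 37, Meis2 12 of 26 and Six6 6 of 17.

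The medians over deep pairs were −0.81 at Pax6, −0.44 at Six3, −0.30 at Six6, −0.08 at Meis2, 0.16 at Rax, 0.17 at Meis1 and 0.59 at Lhx2. Of the 79 deep pairs, 15 reached 20 tags in control only and 15 in Ngn3-OE only, and all 10 of the 2-fold pairs were among these 30. When the mean of both libraries had to reach 20 tags, the median stayed at −0.81 for Pax6 and was −0.42 for Six3 and 0.47 for Lhx2. Over the pairs with 20 tags in both libraries it was −0.36 at Pax6, with 5 of 5 below 0 (3 of 5 without scaling), but 0.06 at Six3 and −0.09 at the 2 such pairs of Lhx2. The lower values at Pax6 were thus seen with and without the limit, whereas the sign at Six3, Lhx2 and Meis1 changed with it. The sign at Pax6 was the same without scaling and with scaling by the genome background, while Meis2 turned to 0.03 and 0.06 over its deep pairs. The interval of the Pax6 median over deep pairs ran from −1.01 to −0.003. It included 0 without scaling (−0.90 to 0.11) and with scaling by the genome background (−0.88 to 0.13). It also did so when only peaks within 50 kb of the gene were taken (−1.15 to 0.58).

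**Figure D3:**
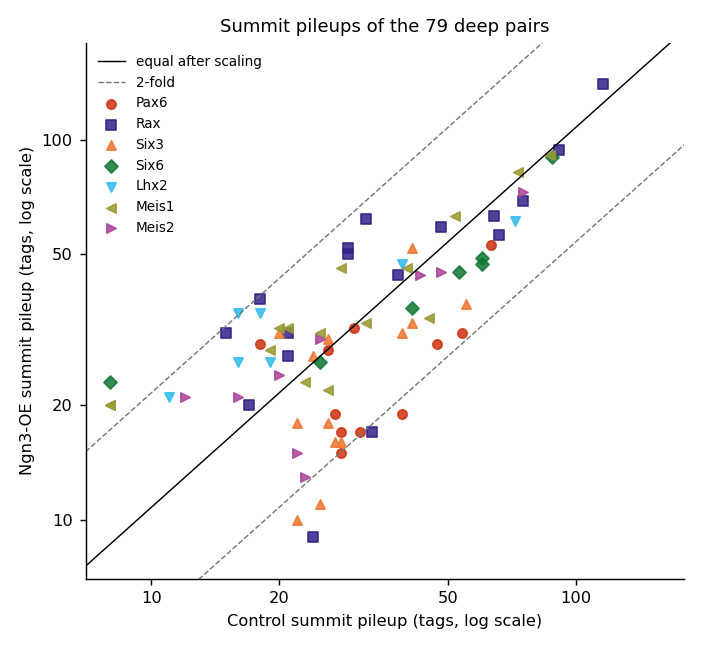
Summit pileup of each deep pair in control (x axis, tags, log scale) and Ngn3-OE (y axis, tags, log scale), with a symbol for each gene; the solid line marks equal pileups after scaling and the dashed lines a 2-fold difference. The pairs with the most tags lie near the solid line, and the 2-fold pairs are among those with 39 tags or fewer in either library.

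Pax6 (ENSMUSG00000027168.21, chr2:105668900-105697364, plus strand, mm10) encodes the paired-domain and homeodomain factor that is needed for eye formation and for the full range of retinal neuron types. Summed over its 27 shared pairs the summit pileups came to 597 control tags and 467 Ngn3-OE tags, a scaled ratio of 0.725. The 11 deep pairs, of which 5 reached 20 tags in control only and 1 in Ngn3-OE only, had 391 and 289 tags, a scaled ratio of 0.685. Control was the higher library at 10 of these 11 after scaling and at 8 before it, and 2 were at least 2-fold lower in Ngn3-OE.

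Shared peaks stood at 3 Pax6 start sites, and an Ngn3-OE-only peak of 13 tags lay 361 bp from another. The peak 101 bp before the first base of the gene had 28 control tags and 15 Ngn3-OE tags, a log2 ratio of −1.01 (−2.02 to −0.06). Its sequence is the Pax6 start-site entry printed above and lies wholly upstream of the annotated exons. A peak 6.5 kb further into the gene, at chr2:105675248-105675685 and 69 bp before another Pax6 start site, had 39 and 19 tags, a log2 ratio of −1.15 (−2.02 to −0.32). Between them a peak at chr2:105671209-105671333 had 18 and 29 tags, a log2 ratio of 0.58 (−0.32 to 1.51). Control was higher at the outer pair of start sites and Ngn3-OE at the middle one, though the interval of the middle peak included 0.

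A group of peaks upstream of Pax6 was also lower in Ngn3-OE. It lies in Pax6os1, the antisense transcript that starts near Pax6, and close to the start of Paupar, a long noncoding RNA next to Pax6. Here 3 peaks 8.7, 8.2 and 6.9 kb before the gene had 54, 47 and 27 control tags and 31, 29 and 19 Ngn3-OE tags. Their log2 ratios were −0.91, −0.81 and −0.62, and the intervals of the first (−1.60 to −0.25) and of the next (−1.53 to −0.11) excluded 0. Control was the higher library at each of them. Of the 11 deep Pax6 pairs, 5 had an interval wholly below 0 after scaling and 2 without scaling or with scaling by the genome background. Those 2 were the peak 8.7 kb before the gene and the start-site peak with 39 and 19 tags. Over the 79 deep pairs of all 7 windows, 10 intervals lay below 0 and 6 above it after scaling. Without scaling, or with scaling by the genome background, 5 lay below and 11 above. Such intervals were not counted over all deep pairs of the genome.

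Farther upstream, in an intron of Pax6os1, stood a cluster of distal peaks. Its strongest peak, 62.0 kb before the gene, had 63 control and 53 Ngn3-OE tags, a log2 ratio of −0.36 (−0.91 to 0.19), and by −log10 q it stood at percentile 96.0 of the control list and 94.1 of the Ngn3-OE list. At 56.8 kb a peak had 31 and 17 tags (−0.98, −1.92 to −0.08), and at 52.3 kb a peak had 28 and 17 tags (−0.83, −1.79 to 0.09). The other shared peaks of this stretch were weaker, with 16 and 17 tags at 64.1 kb (−0.02) and, in the opposite direction, 10 and 19 tags at 61.4 kb (0.82, −0.36 to 2.08). An Ngn3-OE-only peak of 10 tags lay at 52.6 kb. Beside the peak at 56.8 kb lay the control-only peak at chr2:105612378-105612569, with 30 tags and a −log10 q of 24.4, and the closest Ngn3-OE summit was 321 bp away. It was the strongest of all 114 one-library peaks in the 7 windows.

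Some Pax6 peaks were level. An intronic peak 19.7 kb into the gene had 30 control and 32 Ngn3-OE tags, and a peak in an intron of Elp4 beyond the 3′ end of Pax6, 50.5 kb from its start, had 26 and 28. After scaling their log2 ratios were −0.02 and −0.003. The lowest ratios of all shared pairs in the window also lay in introns of Elp4, below the limit for deep pairs. They had 19 and 8 tags at 52.1 kb (−1.36, −2.76 to −0.10) and 17 and 7 tags at 110.6 kb (−1.39, −2.90 to −0.05). Elp4 pairs at 53.7 kb (7 and 14 tags, 0.89) and 124.1 kb (7 and 10 tags, 0.40) went the other way. The 5 distal deep pairs of Pax6 had a median log2 ratio of −0.36 and the 6 promoter deep pairs of −0.86.

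Six3 (ENSMUSG00000038805.10, chr17:85613608-85629302, plus strand), a repressor that keeps the anterior neural plate and eye field from posterior signals, was even over all its pairs. Of 28 shared pairs, 14 had a log2 ratio above 0 and 14 below, with 539 control and 495 Ngn3-OE tags in all. Of its 13 deep pairs, 9 were below 0, but 6 of these reached 20 tags in control only, and both of its 2-fold lower pairs were among the 6. The peak 115 bp before the main Six3 start had 39 and 31 tags (−0.44, −1.17 to 0.28), and the small peak next to it, which was set against the same Ngn3-OE peak, had 20 and 31. Another start-site peak, 477 bp from that start, had 15 and 17 tags. A promoter peak 3.2 kb into the Six3 transcription unit had 25 and 11 tags, a log2 ratio of −1.29 (−2.46 to −0.22). An intronic peak 12.7 kb into it, whose sequence is printed above, had 22 and 10 tags (−1.25, −2.49 to −0.11).

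Of the distal peaks of Six3, one 51.5 kb from the gene start had 41 control and 33 Ngn3-OE tags, and one at 32.3 kb had 41 and 52. Their log2 ratios were −0.42 (−1.13 to 0.27) and 0.23 (−0.39 to 0.86), and both intervals included 0. The Six3 window also holds Six2, and its deep pairs are the same 13 that fall in the window of Six2. The tallest control peak of the window, in an untranslated exon 15.4 kb from the Six3 start, had 55 and 37 tags (−0.68, −1.32 to −0.05). Of the 3 deep Six3 pairs whose interval lay below 0, this one and the pair at 12.7 kb had intervals that included 0 without scaling. One control-only peak of 16 tags and one Ngn3-OE-only peak of 17 tags lay 402 bp apart near the first Six3 exon.

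Six6 (ENSMUSG00000021099.6, chr12:72939892-72944899, plus strand), the close relative of Six3 that drives expansion of the retinal progenitor pool, had a level start-site peak. It stood 52 bp before the gene with 88 control and 90 Ngn3-OE tags, a log2 ratio of −0.08 (−0.52 to 0.36). The 6 pairs with 20 tags in both libraries were all below 0 after scaling, the lowest at −0.46, and 4 of the 6 before it. The single deep pair above 0 was the region 98.2 kb upstream printed above, where 8 control tags stood against 23 in Ngn3-OE, a log2 ratio of 1.41 (0.20 to 2.79). Its neighbour 95.5 kb upstream had 60 and 49 tags (−0.40, −0.98 to 0.17). Both lie near the edge of the window and drop out of a 50 kb flank.

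Lhx2 (ENSMUSG00000000247.11, chr2:38339281-38369733, plus strand), a LIM-homeobox factor that is needed from the optic vesicle to Müller glia, had more tags in Ngn3-OE over its pairs as a whole. The summed pileups of its 21 shared pairs were 318 control and 414 Ngn3-OE tags, a scaled ratio of 1.21. The pairs 55.9 and 56.1 kb from the start were set against the same Ngn3-OE peak of 12 tags. That peak is therefore counted for each of them, in the sum and among the pairs above 0. Its strongest peak was an exception, at a start site 11.8 kb into the gene, with 72 and 61 tags (−0.35, −0.87 to 0.16). A small peak 117 bp into the gene, at its other start site, had 12 and 15 tags, and the strongest distal peak, 91.0 kb upstream in an intron of Dennd1a, had 19 and 26 (0.34, −0.57 to 1.28).

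The higher values at Lhx2 came from peaks of moderate height. The peak in a coding exon at chr2:38354708-38354787 had 16 control and 35 Ngn3-OE tags, a log2 ratio of 1.02 (0.13 to 1.97), and its sequence with TAATCC is printed above. A peak 25.8 kb into the gene had 18 and 35 tags (0.85, −0.01 to 1.76), and a distal peak 64.9 kb from the start had 11 and 21 (0.82). All 3 reached 20 tags in Ngn3-OE only, as did 5 of the 7 deep pairs. Without scaling, or with scaling by the genome background, the interval of the peak at 25.8 kb lay above 0. The interval of the median over the 7 deep pairs ran from −0.35 to 1.02 and so included 0.

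Meis1 (ENSMUSG00000020160.18, chr11:18879817-19018985, minus strand), a cofactor of progenitor proliferation in the early eye, had an even start-site peak. With 87 control and 91 Ngn3-OE tags 28 bp before the gene, its log2 ratio was −0.04 (−0.48 to 0.40). A second peak 1.5 kb upstream had 73 and 82 tags (0.06). Between them, 0.7 kb before the gene, lay a control-only peak of 19 tags. The strongest distal peak, in an intron 102.1 kb from the start and printed above, had 52 and 63 tags (0.17, −0.39 to 0.73).

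Of the 15 deep pairs of Meis1, 2 were called 2-fold higher. Both of these, 147 kb from the gene start and near the start of the noncoding gene 8430419K02Rik, had 8 control tags and were set against the same Ngn3-OE peak of 20 tags. They are therefore 1 region counted on both sides of a gap in the control list, and the interval of the log2 ratio of 1.21 (−0.03 to 2.61) included 0. Without scaling, or with scaling by the genome background, that interval lay above 0. So did the interval of a pair 141.4 kb from the start, with 28 and 46 tags. The lowest deep pair was an intronic peak with 45 and 34 tags (−0.51, −1.20 to 0.16).

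Meis2 (ENSMUSG00000027210.20, chr2:115863064-116065839, minus strand), whose protein is known to bind a lens enhancer of Pax6, had no 2-fold pair among its deep pairs. Its start-site peak had 75 control and 73 Ngn3-OE tags (−0.15, −0.63 to 0.34). The strongest distal peak, 209.8 kb from the start and just past the 3′ end of the gene, had 43 and 44 tags (−0.08). The 9 deep pairs ranged from −0.93, at 23 and 13 tags, to 0.70, at 12 and 21 tags, and the intervals of both ends included 0.

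**Figure D4:**
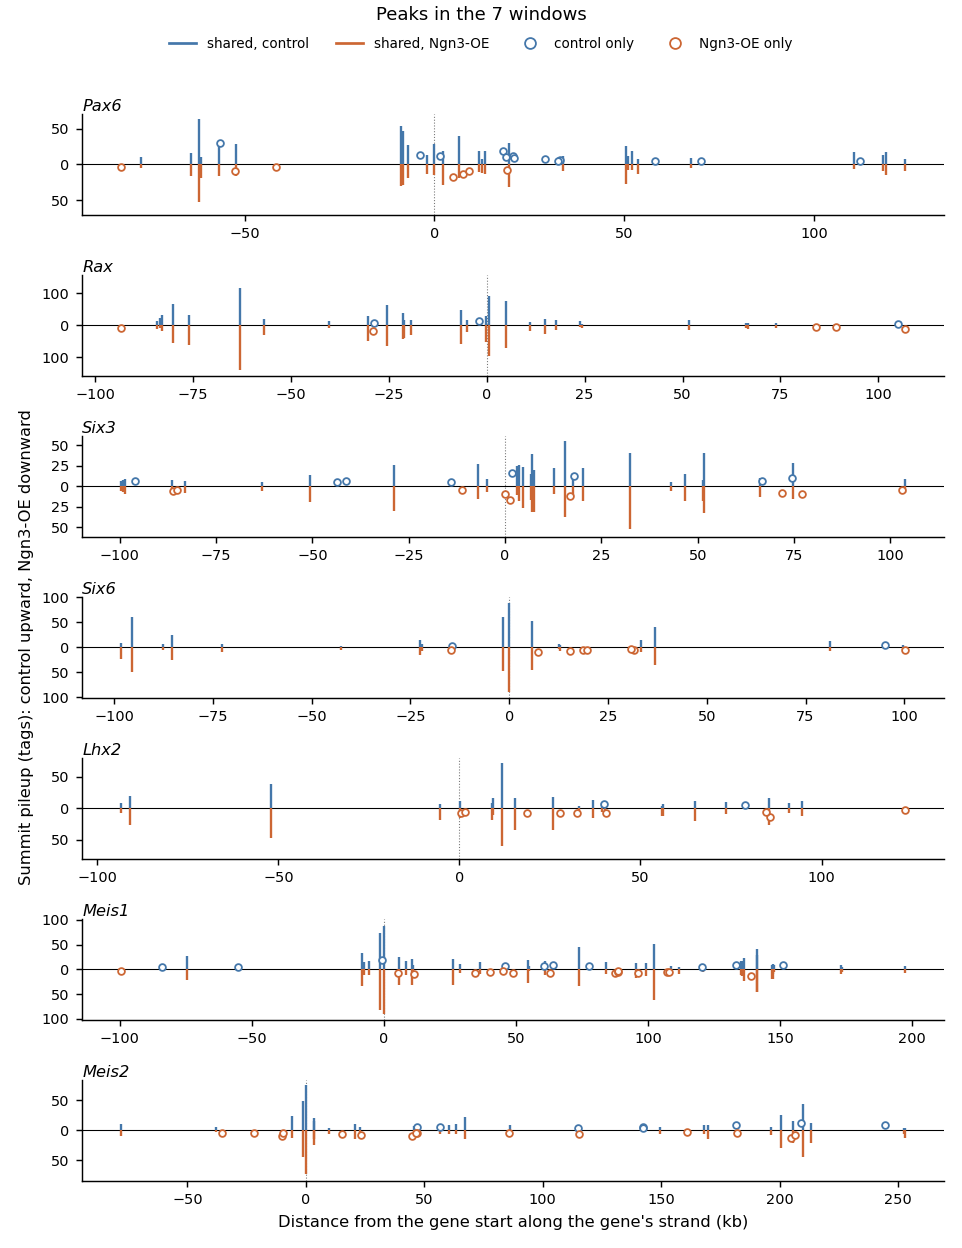
Summit pileup in tags (y axis, control upward and Ngn3-OE downward, scaled to each window) against distance from the gene start along the gene's strand in kb (x axis) for the 7 windows; lines are shared peaks and circles peaks of 1 library. At Pax6 most tall lines around the gene start are shorter downward than upward, and the start-site lines of Six6, Meis1 and Meis2 are nearly symmetrical.

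Rax (ENSMUSG00000024518.4, chr18:65928277-65939787, minus strand), the retinal homeobox gene without which no optic vesicle forms, had the most deep pairs, 17. Over its 29 shared pairs it had 860 control and 997 Ngn3-OE tags, a scaled ratio of 1.07. The strongest peak at its own start site had 91 control and 94 Ngn3-OE tags (−0.06, −0.49 to 0.37). A weaker peak, 805 bp before that start site and 124 bp before the first base of the gene, had 29 and 52 tags. Its log2 ratio was 0.73 (0.05 to 1.44). Of the 2 shared peaks at Rax start sites, the weaker was thus higher in Ngn3-OE while the stronger was level.

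The Rax window reaches into Cplx4, which encodes a complexin of photoreceptor synapses, and Lman1. In introns of Cplx4 the strongest peak had 64 and 63 tags (−0.13), but a smaller one had 18 and 38 (0.97, 0.12 to 1.87). The highest pile in the window belonged to the Lman1 promoter, with 116 and 140 tags (0.16). The lowest 2 ratios among its deep pairs stood next to each other more than 80 kb upstream of Rax, with 33 and 17 tags (−1.07, −2.00 to −0.18) and 24 and 9 tags (−1.52, −2.81 to −0.37). Both were 2-fold lower, and both were intergenic and closer to Lman1 than to Rax.

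Taken by control height, the strongest start-site peak of Rax, Six6, Meis1 and Meis2 had 75 to 91 control tags and a log2 ratio between −0.15 and −0.04. At Lhx2 (72 and 61 tags) and Six3 (39 and 31) it was lower in Ngn3-OE with an interval that included 0, and at Pax6 (39 and 19) it was lower with an interval that did not. By Ngn3-OE height, however, the strongest Pax6 start-site peak was the one with 18 and 29 tags.

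Related genes were taken with the same windows. The MEIS partners and relatives (Meis3 and the PBX and PKNOX genes) had 2 of 71 deep pairs 2-fold higher and 5 lower, and a median log2 ratio of −0.01. Lhx9 and the LIM cofactor gene Ldb1 had none higher and 1 lower of 16 and a median of −0.13. No gene of these 2 lists with 7 or more deep pairs had a median as low as that of Pax6.

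The words searched in the sequences were about as common in these windows as elsewhere. Within 100 bp of the summit and on either strand, TAATTA was found at 9.96% of the 231 control peaks against 8.06% of all control peaks, TGACAG at 20.3% against 19.2%, and CATCTG at 19.9% against 21.3%. TAATCC was found at 13.4% against 13.9%, the SOX-type words at 7.79% against 8.80%, and TGATAC, the core of the Six3 family, at 2.16% against 3.69%. In each case the interval of the share at the 7 genes included the share over all control peaks. Across the libraries, TAATCC lay at 3 of the 46 control-only and 13 of the 68 Ngn3-OE-only peaks, and over the whole genome at 9.89% and 20.0% of such peaks. At the deep pairs of the 7 genes it lay at 9 of 37 with a ratio above 0 and at 5 of 42 below 0, beside 20.5% and 6.48% of all deep pairs. TGACAG lay at 6 of 37 above 0 and 11 of 42 below, beside 18.1% and 15.3% of all deep pairs, and TAATTA at 5 of 37 and 2 of 42, beside 5.21% and 5.74%. CATCTG lay at 9 of 37 above 0 and 8 of 42 below, beside 21.74% and 14.01%, and the SOX-type words at 3 of 37 and 5 of 42, beside 5.49% and 8.91%. The order of the shares at these genes was that of the whole lists for TAATCC, the SOX-type words and CATCTG, and the opposite for TGACAG and TAATTA, on counts of 11 or fewer.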

How the data were processed

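Peak lists of 2 ATAC-seq libraries, control and Ngn3-OE, were analysed, with groups taken from the sample titles. Per the labels and methods, the authors trimmed reads with Trimmomatic, aligned them to mm10 with Bowtie2, filtered them with Picard, SAMtools and bedtools, shifted read ends with deepTools to centre the Tn5 cut and called peaks in each library with MACS2. Only short fragments entered peak calling, so longer nucleosomal fragments do not contribute. The deposited lists give a fold enrichment (a ratio to local background), the −log10 of p and q values and a whole-number score, which was not used, and a summit position. Total read depth was not given in the sources used here.

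Lines of equal interval were merged, keeping the summit of highest −log10 q. Whole pileups were solved from fold enrichment and −log10 p under the Poisson model of MACS2 with its pseudocount of 1, within a tolerance of 0.01, for 100% of peaks. Tag extension is not stated, so pileups are tags at a summit. Gene bodies and start sites came from GENCODE M21. No peak passed the end of its chromosome. Promoter means within 3 kb of a start site, and own start sites were within 1 kb. Pileup ratios carry exact binomial intervals, shares Wilson intervals and medians order-statistic intervals (95%). The computations used Python 3.11.15, numpy 2.4.6, pandas 2.3.3 and scipy 1.17.1, and were tested on simulated data.

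Members and lists were chosen with earlier results of these data known. For each gene the text gives start-site peaks, the strongest distal pair, and the highest and lowest ratios, with other pairs added after their values were seen. The Pax6 control-only and start-site sequences, the one-to-one pairing, the limit on the mean of both libraries and the values over all shared pairs were also chosen then. Other flanks, overlaps, scalings, tag limits and folds were tried. Some related genes and markers are not reported here.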

Additional observations from a re-analysis of the deposited data

How the results depend on the processing

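No paired analysis was possible because each group had 1 library, and no replicate could be left out. Of 63 alternative values for the main results, 54 stayed within the interval of the reported value, and so did all 49 alternative medians of single genes. The intervals of single genes are wide, so this says little about stability. At Six6 and Lhx2, with 7 deep pairs each, they span the whole range of the ratios. Without a tag limit, and with the scaling then taken over all pairs, the median at Meis1 turned to −0.03. The median at Meis2 turned to 0.03 without scaling, 0.06 with scaling by the genome background and 0.04 over distal pairs. Values moved as follows. With the gene bodies alone, 65.2% of Ngn3-OE peaks were shared. When overlap had to cover 50% of both peaks, 68.4% of control and 63.2% of Ngn3-OE peaks were shared. With at least 40 tags required, 0% of pairs were 2-fold higher and 0% 2-fold lower, since every 2-fold pair had fewer tags. At a limit of 1.5-fold, 17.7% were higher and 21.5% lower. The one-library counts of single genes were less stable, and 19 of 42 moved by more than 1.5 times. Among alternatives chosen after seeing the data, a mean of at least 20 tags over both libraries left 1.49% of pairs 2-fold higher and 2.99% lower, and use of each Ngn3-OE peak in 1 pair only gave 3.95% and 7.89%. Low pileups limit the precision: at 8 control and 23 Ngn3-OE tags the interval of the log2 ratio ran from 0.20 to 2.79.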
